A study of Rattus norvegicus with 18 samples.

Results

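The genes described here encode the subunits of the mitochondrial respiratory chain and ATP synthase in the rat. Members were all genes whose platform symbol begins with Nduf, Sdha to Sdhd, Uqcr, Cox4 to Cox8 or Atp5, plus Cyc1. Only probe sets with exactly 1 symbol were used, and the brightest probe set stood for each gene. This gave 91 of the 14217 genes measured. They were 36 complex I subunits, 4 complex II subunits, 8 complex III subunits, 17 complex IV subunits, 16 complex V subunits, 6 complex I assembly factors (Ndufaf) and 4 complex II assembly factors (Sdhaf), which share the first letters of the rule. Of these, 90 are protein-coding and 1, Cox6c-ps1, is a pseudogene.

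Affymetrix rat arrays, 18 in all, measured total RNA of mucosa scraped from the jejunum, a segment of the small intestine. Intact male Sprague Dawley rats of 6 to 8 weeks were dosed by gavage, and there were 3 arrays in each of 6 groups. The groups were vehicle, palbociclib at 30 mg/kg/day, palbociclib at 100 mg/kg/day, abemaciclib at 36 mg/kg/day, abemaciclib at 120 mg/kg/day and ribociclib at 300 mg/kg/day. The 3 compounds inhibit the cell cycle kinases CDK4 and CDK6, and the title of the study asks whether their intestinal toxicity depends on that action. Palbociclib and ribociclib carry a cyclopentyl group that abemaciclib lacks. Methyl cellulose was the vehicle of the vehicle group and of both palbociclib groups. Abemaciclib and ribociclib were given in a different vehicle, with hydroxypropyl methylcellulose, Tween 80 and citrate, so compound and vehicle cannot be told apart for these groups. The design text gives 10 rats per group and dosing for 4 or 15 days, and the labels state neither the animal nor the duration behind an array. The title of replicate B of abemaciclib 120 gives a dose of 100, whereas its treatment label gives 120, which was used. No dose was shared between compounds, so comparisons between compounds describe the groups as dosed.

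Complex I takes electrons from NADH and complex II takes them from succinate, the reaction it also carries out in the citric acid cycle. Both pass them through coenzyme Q to complex III, and cytochrome c carries them on to complex IV, which reduces oxygen. Complexes I, III and IV pump protons across the inner membrane, and complex V lets them flow back to make ATP. Nearly all subunits are encoded in the nucleus and imported, while a few core subunits are encoded in mitochondrial DNA. Absorptive enterocytes, the main cells of the villus, spend much ATP on nutrient and ion transport. Some complex IV subunits exist as alternative isoforms, among which Cox7a1 is best known from heart and skeletal muscle.

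The promoters of 5 members are shown because the results below turn on these genes. Cox7a1, Ndufaf4, Ndufaf5 and Ndufaf7 are the members that passed the test with abemaciclib 120, and Atp5mc3 is 1 of the 5 that passed with ribociclib 300. Sequences are from RefSeq on GRCr8 and run 5′ to 3′ on the strand of the gene, from 250 bases before the start of the gene to 50 bases after it. Capitals mark matches, on either strand, to the string bound by nuclear respiratory factor 1 (NRF1), which is GCGC, then any base, then TGCGC, or to TNAAGGTCA, the string of the oestrogen-related receptors (ERR). The Cox7a1 promoter lies at chr1:94568966-94569265 on the plus strand and the Ndufaf4 promoter at chr5:43401545-43401844 on the plus strand. The Ndufaf5 promoter lies at chr3:147961362-147961661 on the plus strand and the Ndufaf7 promoter at chr6:21871916-21872215 on the minus strand. The Atp5mc3 promoter lies at chr3:79220615-79220914 on the minus strand.
Cox7a1: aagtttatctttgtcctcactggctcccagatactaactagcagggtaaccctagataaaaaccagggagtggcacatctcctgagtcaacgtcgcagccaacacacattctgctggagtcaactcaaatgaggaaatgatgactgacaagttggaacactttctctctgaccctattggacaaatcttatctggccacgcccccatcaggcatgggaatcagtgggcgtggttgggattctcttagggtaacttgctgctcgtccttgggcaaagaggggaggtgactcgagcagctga
Ndufaf4: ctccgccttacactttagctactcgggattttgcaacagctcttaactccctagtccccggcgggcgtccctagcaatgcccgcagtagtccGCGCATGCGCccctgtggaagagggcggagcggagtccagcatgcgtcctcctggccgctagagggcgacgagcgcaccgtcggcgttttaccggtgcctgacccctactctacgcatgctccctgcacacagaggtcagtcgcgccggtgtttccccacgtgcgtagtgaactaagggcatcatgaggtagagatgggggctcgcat
Ndufaf5: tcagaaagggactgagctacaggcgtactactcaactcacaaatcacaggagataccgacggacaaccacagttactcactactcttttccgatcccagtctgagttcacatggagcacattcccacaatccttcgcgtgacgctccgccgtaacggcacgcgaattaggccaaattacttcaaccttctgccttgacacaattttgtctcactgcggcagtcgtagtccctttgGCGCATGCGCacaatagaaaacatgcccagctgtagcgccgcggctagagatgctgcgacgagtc
Ndufaf7: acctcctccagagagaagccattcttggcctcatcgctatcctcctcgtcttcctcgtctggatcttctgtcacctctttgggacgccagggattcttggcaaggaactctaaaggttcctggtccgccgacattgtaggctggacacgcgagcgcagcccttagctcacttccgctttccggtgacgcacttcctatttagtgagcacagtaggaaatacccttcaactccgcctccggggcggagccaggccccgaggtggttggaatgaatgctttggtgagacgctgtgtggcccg
Atp5mc3: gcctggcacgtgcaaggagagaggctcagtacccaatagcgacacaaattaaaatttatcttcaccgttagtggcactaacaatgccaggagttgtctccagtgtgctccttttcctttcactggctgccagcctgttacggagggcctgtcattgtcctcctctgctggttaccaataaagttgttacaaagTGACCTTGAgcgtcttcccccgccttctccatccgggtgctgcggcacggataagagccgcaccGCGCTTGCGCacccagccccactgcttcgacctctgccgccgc

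The RefSeq table held promoters for 82 of the 91 members, and Atp5pd, Cox4i2, Cox6a1, Cox6c, Cox6c-ps1, Cyc1, Ndufa8, Ndufb9 and Uqcr11 had none in it. The NRF1 string occurred in 17 of the 82 (20.7%), against 8.49% of 11733 promoters of genes on the array and 4.71% of all 27457 promoters. Its palindromic form, with A as the free base, is counted within these and occurred in 5 members (6.1%), against 1.62% of array genes and 0.932% of all promoters. Those 5 were Ndufaf4, Ndufaf5, Ndufa11, Atp5me and Atp5po. In Ndufaf4 it begins at base 93 of the printed promoter and in Ndufaf5 at base 236. AAGATGGCG, a string of the factor YY1, occurred in 13.4% of members, 3.14% of array genes and 1.93% of all promoters. TNAAGGTCA occurred in 3 members (3.66%), Atp5mc3, Ndufb4 and Sdhd, against 0.673% of array genes and 1.15% of all promoters. CCGGAAGT, a string of the ETS family, occurred in 9.76% of members, 6.84% of array genes and 4.01% of all promoters. GGGCGG was found in 46.3% of members, 57.5% of array genes and 34.9% of all promoters, and CCAAT in 35.4%, 37.3% and 37.7%. The promoters of Cox7a1 and Ndufaf7 held no match to the NRF1, ERR, ETS or YY1 strings. Of the members that passed the test with ribociclib, only Atp5mc3 held a match to any of these strings. The promoters of Ndufs3, Ndufv2 and Uqcrfs1 held none, and Cyc1 had no promoter to search. The printed Atp5mc3 promoter therefore does not stand for the other members that fell with ribociclib.

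The deposited values are log2 signals between 2.86 and 14.34, and any 2 arrays were correlated at 0.918 to 0.993 over all probe sets. Differences below are in log2 units (1 unit is a doubling), and each adjusted p comes from limma with Benjamini-Hochberg adjustment over all 14217 genes, with a threshold of 0.05. The 9 enterocyte markers measured had a summed signal of 16.9 to 16.96 (log2) in the vehicle arrays. It was 16.47 to 16.9 with abemaciclib 120 and 16.9 to 17.01 with ribociclib 300. The mean signal of these markers in vehicle was 13.59 to 13.7, near the highest value of 14.34. In RNA from a mixed tissue, fewer cells of a type and less RNA per cell cannot be told apart. Of the members, 7 lay below the 30th percentile of mean signal over all genes. They were Cox4i2, Cox6a2, Cox6b2, Cox7b2, Cox8b, Ndufa4l2 and Ndufaf7.

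With ribociclib 300, the median respiratory chain transcript lay below vehicle in every complex. The difference was below 0 for 85 of 91 members, against 49.8% of all genes. Only 5 members passed the test, and all 5 fell. They were the complex I subunits Ndufs3 and Ndufv2, the complex III subunits Cyc1 and Uqcrfs1, and the ATP synthase subunit Atp5mc3. Over all genes 3.73% passed in either direction and 2.74% were lower. The median difference of the members was -0.47, against 0.00 over all genes tested and -0.10 over the 1353 other genes with the highest mean signal, a background chosen after the values were seen. Arrays did not overlap for 57 members lower in ribociclib, and 14% of all genes were lower in that way. An unadjusted p under 0.05 was reached by 57 members, against 20.2% of all genes in either direction and 12.9% lower.

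The 3 ribociclib arrays differed in degree. The median member lay 0.21 below the vehicle mean in replicate A, 0.73 below in replicate B and 0.45 below in replicate C, and 83, 85 and 80 of the 91 members lay below it. The vehicle arrays had medians of -0.08, 0.06 and 0.02. All 3 ribociclib arrays therefore lay outside the vehicle range, with replicate A nearest to it. Members also moved together between arrays of other groups. With abemaciclib 36, 87 of 91 members lay below the vehicle mean in replicate B, against 12 in replicate A and 13 in replicate C, and the medians were -0.29, 0.25 and 0.20. With palbociclib 30, replicate A had a median of -0.28. The lower ends of these groups thus reached past the least affected ribociclib array.

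**Figure D1:**
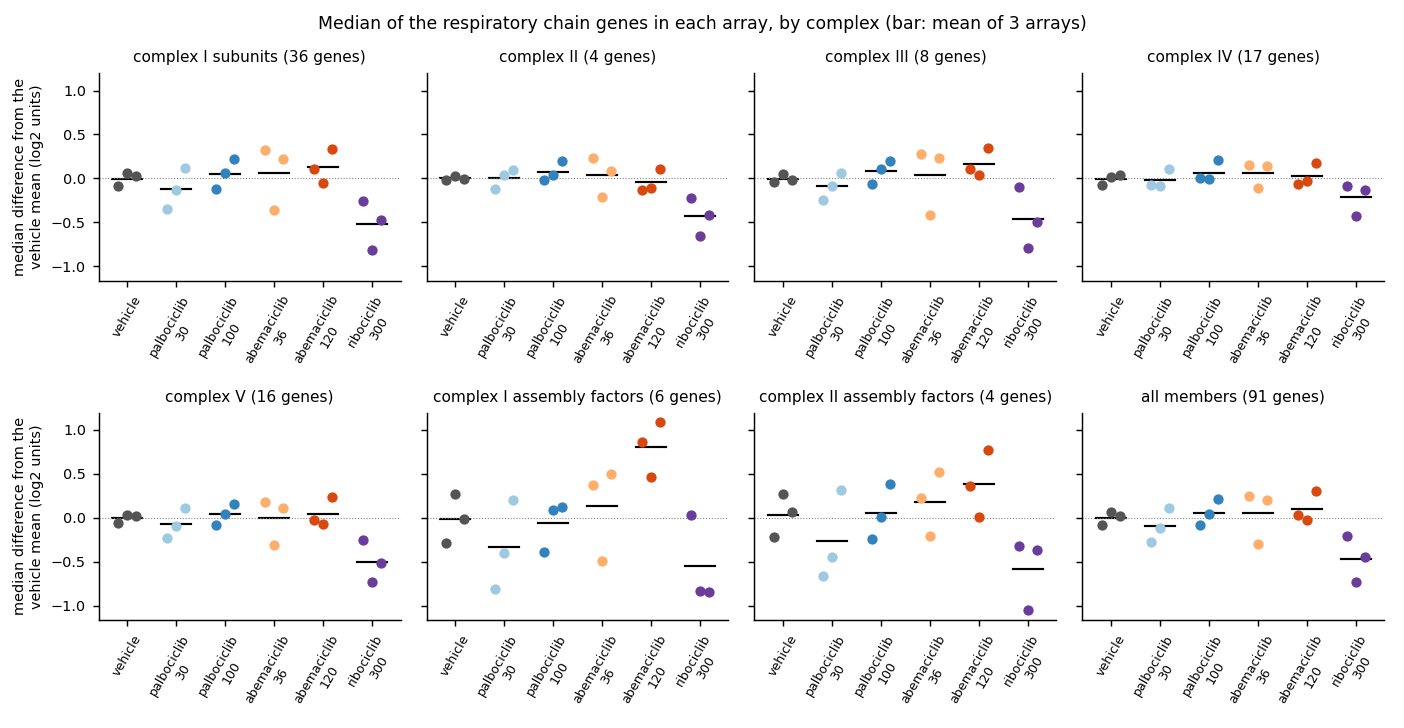
Median difference of each complex from the vehicle mean (vertical axis, log2 units) in each of the 18 arrays (points) by group, with the mean of 3 arrays as a bar. The ribociclib arrays have all-member medians of -0.21, -0.73 and -0.45, and abemaciclib 36 has 1 array at -0.29 and its others at 0.25 and 0.20.

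In complex I, the median subunit was 0.50 below vehicle with ribociclib 300, 35 of 36 subunits were lower and 24 did not overlap. Ndufs3, a core subunit of the arm that reaches into the matrix, read 11.48, 11.41 and 11.33 in vehicle arrays A to C and 11.04, 10.20 and 10.46 in the ribociclib arrays. All ribociclib values lay below all vehicle values. It fell by 0.84 (SE 0.21, 1.79-fold, adjusted p = 0.039). Ndufv2, a subunit of the module that oxidises NADH, read 11.77, 12.03 and 12.01 with vehicle and 11.48, 10.85 and 11.15 with ribociclib. Again the groups did not overlap, and Ndufv2 fell by 0.78 (SE 0.20, 1.71-fold, adjusted p = 0.0434). Larger differences that did not pass were seen for Ndufb10 (-0.98), Ndufs8 (-0.94) and Ndufab1 (-0.86), 3 genes singled out after their values were seen. Ndufa1, a small membrane-arm subunit, differed by -0.09 (SE 0.14, adjusted p = 0.762), and the dim isoform gene Ndufa4l2 by 0.07.

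Ndufa4, named for complex I but now known as a subunit of complex IV, is counted with complex I by its symbol. It read 11.74, 12.06 and 12.06 in vehicle and 11.22, 10.88 and 10.96 with ribociclib. Its arrays did not overlap, but the difference of -0.93 (SE 0.27) did not pass (adjusted p = 0.0654).

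The 4 complex II subunits were all lower on average with ribociclib, with a median of -0.46, and 0 of 4 passed. Sdha, the flavoprotein that holds the succinate site, read 11.73, 11.74 and 11.69 in vehicle and 11.49, 11.14 and 11.11 with ribociclib, a difference of -0.47 (adjusted p = 0.102). Sdhb, the iron-sulphur subunit, differed by -0.49 (adjusted p = 0.0708). The membrane anchor subunits Sdhc and Sdhd differed by -0.23 and -0.44 (adjusted p = 0.37 and 0.114). Sdha, Sdhb and Sdhd did not overlap between the groups and Sdhc did.

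All 8 complex III members were lower, with a median of -0.55. Cyc1, the cytochrome c1 subunit that hands electrons to cytochrome c, read 12.54, 12.50 and 12.44 in vehicle and 12.16, 11.55 and 11.09 with ribociclib. The vehicle arrays lay within 0.10 of each other, while the ribociclib arrays spread over more than 1 unit. Cyc1 fell by 0.89 (SE 0.23, 1.86-fold, adjusted p = 0.0403). Uqcrfs1, the Rieske iron-sulphur protein, read 12.59, 12.65 and 12.68 in vehicle and 12.31, 11.56 and 11.81 with ribociclib. It fell by 0.75 (SE 0.20, 1.68-fold, adjusted p = 0.044), with no overlap. The small subunits Uqcrh and Uqcrq had the smallest differences, -0.32 and -0.25, and their arrays overlapped.

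Complex IV had the smallest median, -0.20, and 0 of 17 passed. Part of the class was dim: 5 of its members were below the 30th percentile of signal, and the median over the other 12 was -0.32, with 12 of 12 below 0. The widely expressed isoforms Cox4i1, Cox6a1 and Cox8a had differences of -0.31, -0.33 and -0.22, and Cox5b one of -0.53 (adjusted p = 0.185, 0.107, 0.245 and 0.119). All 4 were without overlap. Cox5a, another nuclear-encoded subunit, differed by -0.15 with overlapping arrays. A brighter Cox5a probe set, left out because it carries a second symbol, differed by -0.48, from 12.79 in vehicle to 12.31, without overlap. The tissue-restricted isoforms Cox4i2, Cox6a2, Cox6b2 and Cox8b read between 3.48 and 4.70 in every array, close to the floor of the scale, and their differences of 0.27, 0.17, -0.07 and 0.01 carry little information.

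In complex V, 16 of 16 members were lower and 15 did not overlap, with differences between -0.57 and -0.35 and a median of -0.51. The spread among these subunits was the narrowest of the classes of more than 4 genes. Atp5mc3, which encodes 1 of the copies of the ring subunit c, read 13.15, 13.19 and 13.18 in vehicle and 12.76, 12.66 and 12.47 with ribociclib. It fell by 0.55 (SE 0.14, 1.46-fold, adjusted p = 0.0403). The catalytic beta subunit Atp5f1b read 13.48, 13.43 and 13.45 in vehicle and 13.42, 12.98 and 12.91 with ribociclib, so replicate A lay just below the vehicle arrays. Atp5if1, the inhibitor that blocks the enzyme when it runs backwards, differed by -0.53 (SE 0.19, adjusted p = 0.125). Atp5po, of the peripheral stalk, differed by -0.53 (SE 0.15, adjusted p = 0.0696).

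Assembly factors build the complexes and are not part of them. With ribociclib 300, 9 of 10 lay below vehicle with a median of -0.69, and 0 of 10 passed. Sdhaf3 had the largest difference, -1.16 (SE 0.44, adjusted p = 0.149), with values of 6.40, 6.87 and 6.25 in vehicle and 6.07, 5.23 and 4.74 with ribociclib. Sdhaf2, which helps attach FAD to Sdha, lay 0.15 above vehicle.

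The 5 calls with ribociclib depended on single arrays and on scaling, whereas the direction of the median did not. No member passed when any 1 vehicle array, ribociclib replicate B or ribociclib replicate C was left out, and 29 passed without replicate A. Calls over all genes moved as well, from 531 in the main fit to 207, 124 and 120 without vehicle replicate A, B and C. They were 492 and 273 without ribociclib replicate B and C, and 1317 without ribociclib replicate A. Centring each array on its median moved the median of all genes by 0.175 in this comparison (-0.108 with abemaciclib 120, 0.114 and 0.141 with palbociclib 100 and 30). After centring 0 members passed and the member median was -0.30, with complex IV at -0.02 and the other classes between -0.58 and -0.28. The split of called genes over the whole array also turned, from 142 higher and 389 lower to 253 higher and 184 lower. With an RNA quality covariate 1 member passed, and with only the 6 arrays compared 0 passed (374 and 29 of all genes).

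Other cell types moved in the same arrays. The 9 smooth muscle markers had a median difference of 0.90 with ribociclib 300, 0 of 9 passed, and their summed signal was 9.62 to 10.96 against 9.02 to 9.30 in vehicle. By array their median was 1.95 in replicate A, where the respiratory chain was nearest to vehicle, 0.18 in replicate B and 0.43 in replicate C. The T and NK cell markers fell in 4 of 10 cases, with a summed signal of 9.86 to 12.47 against 12.51 to 12.96. Crypt and dividing cell markers passed in 0 of 10 (9.51 to 11.35 against 10.44 to 10.93) and erythrocyte markers in 0 of 3 (9.02 to 12.68 against 9.26 to 10.83). Macrophage and dendritic cell markers fell in 1 of 10 cases, with a median of -0.66 and array medians of -0.71, -1.04 and -0.30. Fibroblast markers passed in 0 of 6, with array medians of 1.90, -1.23 and 0.53 in replicates A, B and C. Enterocyte markers passed in 0 of 9, at 16.9 to 17.01 against 16.9 to 16.96. The difference between the 3′ and 5′ actin control probe sets, a measure of RNA integrity, was 0.41, 0.40 and 0.90 in the ribociclib arrays and 0.65, 0.79 and 0.57 in vehicle. The part of these in the respiratory chain differences was not tested.

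**Figure D2:**
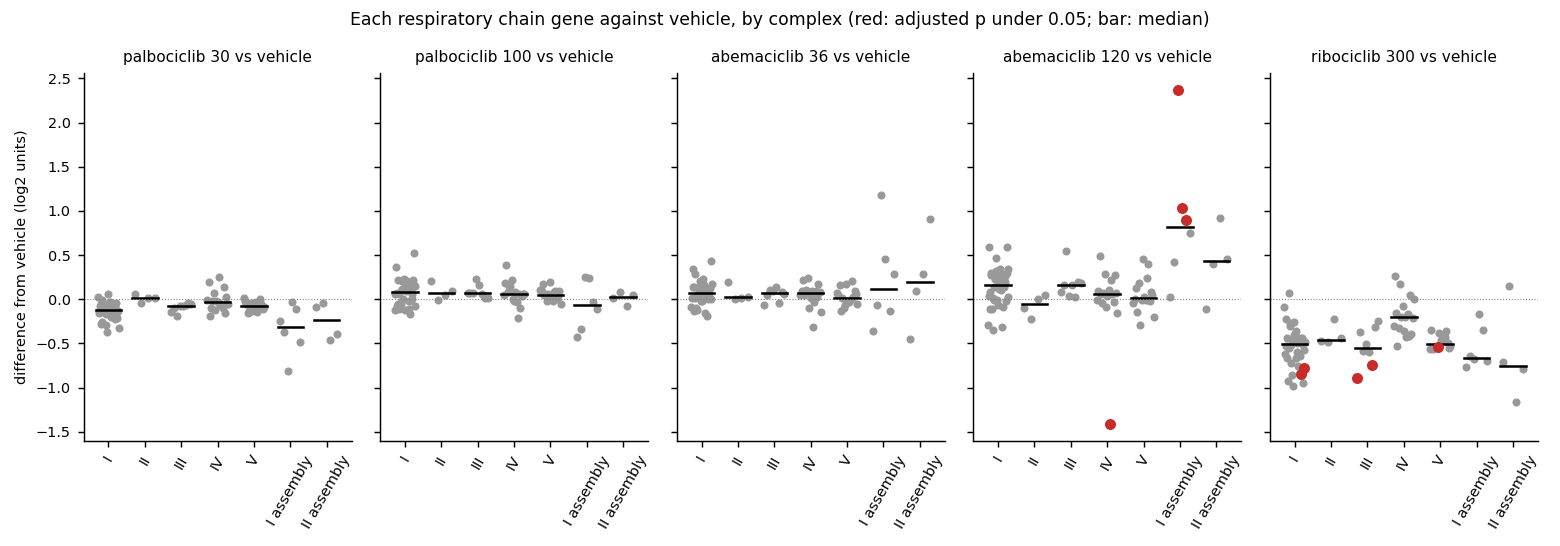
Difference from vehicle of each of the 91 members (points, vertical axis in log2 units) by complex, for each dosed group, with members past the test in red and class medians as bars. Members sit mostly below 0 with ribociclib 300 and around 0 with abemaciclib 120, where 3 complex I assembly factors and Cox7a1 stand away from the rest.

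With abemaciclib 120, the subunits as a class stayed near vehicle, while 1 complex IV isoform fell and 3 complex I assembly factors rose. In all, 4 of 91 members passed, against 18% of all genes (9.6% higher and 8.41% lower). Arrays did not overlap for 17 members higher and 1 lower, against 18.6% and 18.7% of all genes. The median member differed by 0.09, against -0.02 over all genes, and by -0.01 with arrays centred. An unadjusted p under 0.05 was reached by 5 of 91, against 29.7% of all genes.

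Cox7a1, a complex IV subunit isoform, read 12.21, 12.20 and 12.45 in vehicle and 10.52, 11.11 and 11.00 with abemaciclib 120. The lowest vehicle value exceeded the highest abemaciclib value by about 1 unit. Cox7a1 fell by 1.41 (SE 0.18, 2.66-fold, adjusted p = 9.03e-05), and the adjusted p stayed between 6.5e-05 and 0.00156 over the 14 alternatives. With abemaciclib 36 it read 11.99, 11.87 and 12.06, each below every vehicle array (12.3% of all genes were lower in that way), but the difference of -0.32 (SE 0.18) did not pass (adjusted p = 0.467). With ribociclib 300 it read 11.79, 11.98 and 11.82, also each below every vehicle array (14% of all genes were lower in that way). That difference of -0.42 did not pass either (adjusted p = 0.186). The palbociclib arrays, at 11.91 to 12.50, overlapped vehicle. The decline from 36 to 120 mg/kg/day of abemaciclib was itself past the test (-1.09, SE 0.18, adjusted p = 0.00146).

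Cox7a1 was measured by a single probe set, and its gene model in GRCr8 overlaps the start of its neighbour Capns1, whose own signal differed by 0.08 with abemaciclib 120 (adjusted p = 0.794). The related gene Cox7a2l, which is known for joining complexes III and IV, differed by 0.22 (SE 0.19, adjusted p = 0.518). The smooth muscle markers had a median difference of 0.04, and 1 of 9 passed, Smtn, which rose. By array their medians varied, at -0.24, 0.58 and -0.16 in abemaciclib 120 replicates A, B and C. Fibroblast markers had medians of -1.88, 1.15 and -1.08 in the same arrays, against -0.45, 0.49 and 0.00 in vehicle.

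The complex I assembly factors had a median difference of 0.82 with abemaciclib 120, and 3 of 6 rose. Ndufaf4, which acts with Ndufaf3 in building the part of complex I that reduces coenzyme Q, read 6.98, 7.82 and 7.03 in vehicle, 8.75, 7.07 and 9.55 with abemaciclib 36 and 9.85, 9.02 and 10.08 with abemaciclib 120. The 120 mg/kg/day arrays lay above all vehicle arrays, and 2 of the 3 lower-dose arrays did so too. Ndufaf4 rose by 2.37 (SE 0.58, 5.17-fold, adjusted p = 0.00973), and with the RNA quality covariate its adjusted p was 0.0546. The difference of 1.18 at 36 mg/kg/day did not pass (adjusted p = 0.392).

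Ndufaf5, an enzyme that modifies Ndufs7 during assembly, read 5.83, 6.27 and 5.99 in vehicle and 7.15, 6.70 and 7.33 with abemaciclib 120. It rose by 1.03 (SE 0.23, 2.04-fold, adjusted p = 0.00601) and passed in all 14 alternatives. Ndufaf7, a further assembly factor of complex I, read 4.79, 5.18 and 4.99 in vehicle and 5.79, 5.74 and 6.11 with abemaciclib 120. It rose by 0.89 (SE 0.26, 1.86-fold, adjusted p = 0.0233). Its signal is dim, its second probe set differed by 0.04, and the call was lost when both probe sets were averaged or when vehicle replicate A or C, or abemaciclib replicate A or C, was left out. Of the other factors, Ndufaf8 (0.75), Ndufaf3 (0.42), Ndufaf1 (0.02) and all 4 Sdhaf genes did not pass.

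**Figure D3:**
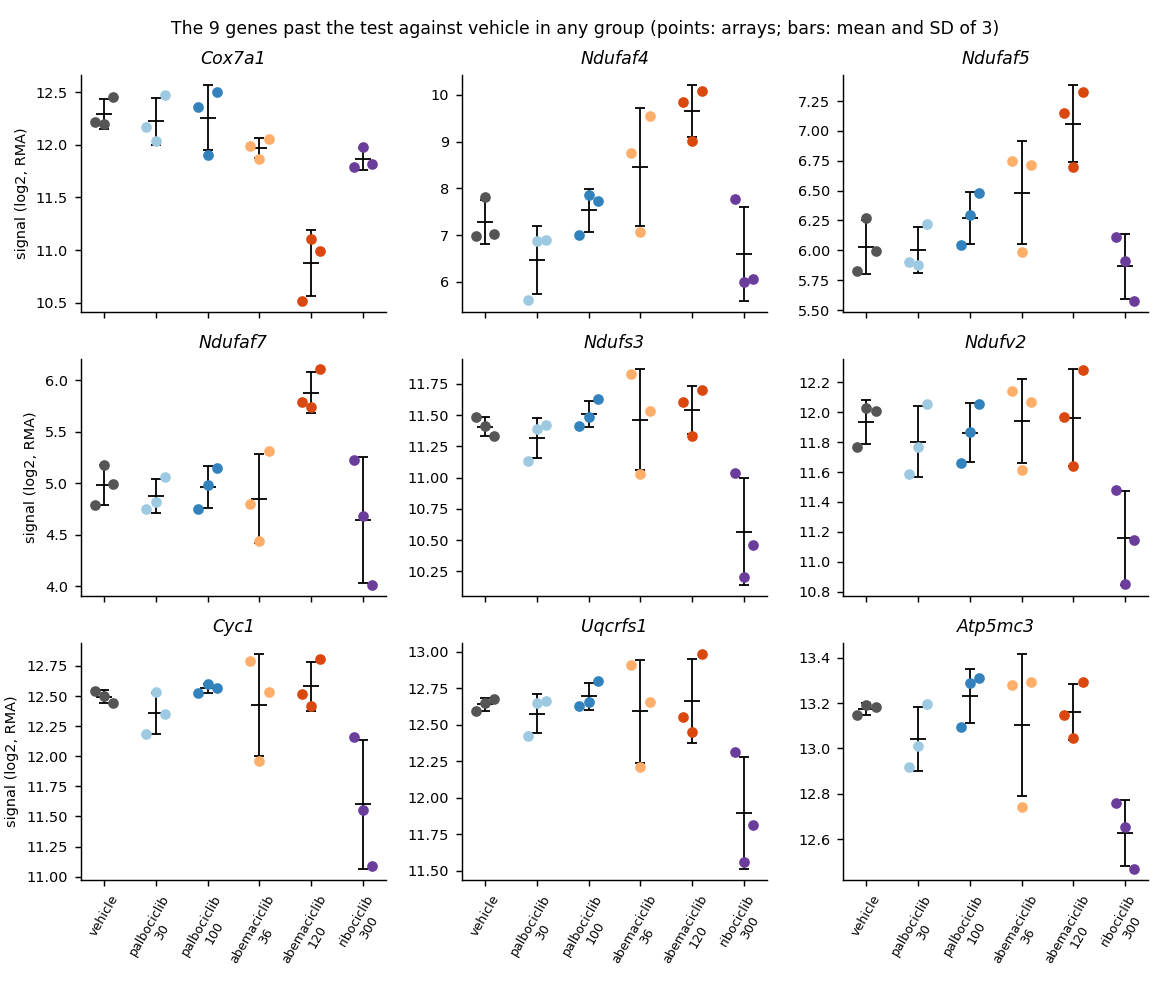
Signal (vertical axis, log2) of the 9 members past the test against vehicle in any group, with arrays as points and the mean and SD of 3 arrays as bars. Cox7a1 is lowest with abemaciclib 120 (10.52 to 11.11) and Ndufaf4 highest (9.02 to 10.08), while the 5 members that fell with ribociclib 300 stay near vehicle with abemaciclib 120.

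Among the 81 members that are not assembly factors, 0 rose with abemaciclib 120, and the class medians were 0.17 for complex I, -0.05 for complex II, 0.16 for complex III, 0.06 for complex IV and 0.01 for complex V. Their largest positive differences were those of Ndufv1, which binds NADH (0.59, SE 0.28, adjusted p = 0.169), Ndufa12 (0.59, adjusted p = 0.281) and Uqcr11 (0.55, adjusted p = 0.174). Ndufv1 read 11.02, 11.14 and 10.99 in vehicle and 11.80, 11.38 and 11.74 with abemaciclib 120, without overlap. The small complex V subunit Atp5me read 11.81, 11.80 and 11.80 in vehicle and 12.27, 12.11 and 12.40 with abemaciclib 120 (0.46, SE 0.20, adjusted p = 0.134), again without overlap. In complex IV, Cox5a (0.49) and Cox6b1 (0.29) did not overlap with vehicle and did not pass. The brighter Cox5a probe set that carries a second symbol differed by 0.03, with overlap. Sdhb differed by -0.23 (SE 0.14, adjusted p = 0.334), and Sdha, Sdhc and Sdhd by -0.10, 0.00 and 0.05. The 95% intervals of 45 of 91 members lay within 1.5-fold of vehicle in either direction, and those of the others reached past that size.

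Cell type markers differed widely in the abemaciclib 120 arrays. Crypt and dividing cell markers rose in 8 of 10 cases (summed signal 12.28 to 12.77 against 10.44 to 10.93 in vehicle). T and NK cell markers fell in 9 of 10 (9.21 to 10.04 against 12.51 to 12.96) and macrophage and dendritic cell markers in 6 of 10 (9.57 to 11.30 against 12.98 to 13.27). Of 9 enterocyte markers, Apoa1 fell, and their summed signal was 16.47 to 16.9 against 16.9 to 16.96. The enterocyte medians were -0.24, -0.09 and -0.32 in replicates A, B and C, below all vehicle arrays (-0.01 to 0.06). The actin 3′ to 5′ difference was 1.05, 0.91 and 0.86, above the vehicle arrays at 0.57 to 0.79. Their part in the rises of the assembly factors and the fall of Cox7a1 was not tested.

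With abemaciclib 36, palbociclib 100 and palbociclib 30, no member passed limma's test against vehicle, and 0 of 91 had an unadjusted p under 0.05 in any of the 3. Over all genes, 2.08% passed with abemaciclib 36 and 0% with either dose of palbociclib (unadjusted p under 0.05 in 13.8%, 7.2% and 2.51%). The member medians were 0.06, 0.06 and -0.09. With palbociclib 30, 80 of 91 members lay below vehicle, against 55.5% of all genes, but with arrays centred the median became 0.05. The 95% intervals of 60, 61 and 62 members lay within 1.5-fold of vehicle. All of these comparisons, and those of ribociclib 300 and abemaciclib 120, use the same 3 vehicle arrays.

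Within the palbociclib groups, the lowest p of a complex I subunit belonged to Ndufv1 at 100 mg/kg/day, which read 11.33, 11.74 and 11.65 against 11.02, 11.14 and 10.99 in vehicle (difference 0.52, SE 0.28, adjusted p = 0.714). Its arrays did not overlap, as for 7.46% of all genes. At 30 mg/kg/day it read 10.65, 11.02 and 11.08. Cox6b1 read 12.39, 12.54 and 12.76 at 100 mg/kg/day against 12.30, 12.29 and 12.43 in vehicle, with overlap. Between the doses of palbociclib, 0 of 91 members and 0% of all genes passed, with 4.35% of genes at an unadjusted p under 0.05, and the member median was 0.15 higher at 100 mg/kg/day. Between the doses of abemaciclib, 2 members passed, against 7.59% of all genes. Cox7a1 was lower, and Ndufaf7 was higher by 1.03 (SE 0.26, adjusted p = 0.0211) at 120 mg/kg/day.

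Abemaciclib 120 and ribociclib 300 shared a vehicle and differed in dose. Of 91 members, 83 had a higher mean with abemaciclib and 8 a lower one. By the test 53 were higher with abemaciclib and 1, Cox7a1, was lower, against 17.2% of all genes higher and 10% lower (27.2% in either direction). The median difference was 0.57, against -0.05 over all genes. Arrays did not overlap for 59 members higher in abemaciclib, against 20% of all genes. By class, 24 of 36 complex I subunits, 1 of 4 in complex II, 7 of 8 in complex III, 4 of 17 in complex IV, 11 of 16 in complex V and 6 of 10 assembly factors were higher.

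Of the complex I subunits, Ndufs1, an iron-sulphur subunit and the largest of the complex, and Ndufs3 had the smallest p in this contrast and were chosen after their values were seen. Ndufs1 read 11.17, 11.04 and 11.32 with abemaciclib 120 and 10.60, 10.05 and 10.23 with ribociclib 300, a difference of 0.88 (SE 0.19, adjusted p = 0.00343). Ndufs3 read 11.60, 11.33 and 11.70 with abemaciclib 120, 0.98 above ribociclib (SE 0.21, adjusted p = 0.00363). Ndufa4 differed by 1.21 (SE 0.27, adjusted p = 0.00421), Cyc1 by 0.98 (SE 0.23, adjusted p = 0.00544) and Uqcrfs1 by 0.77 (SE 0.20, adjusted p = 0.0092). The largest difference was that of Ndufaf4, at 3.05 (SE 0.58, adjusted p = 0.0019), and among complex II factors that of Sdhaf3, at 2.08 (SE 0.44, adjusted p = 0.00323).

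Some members did not separate these groups. Sdhc differed by 0.23 (SE 0.14, adjusted p = 0.234), Sdhb by 0.26 (adjusted p = 0.184) and Atp5if1 by 0.24 (adjusted p = 0.352). Ndufa1 was 0.20 lower with abemaciclib (adjusted p = 0.3). Cox7a1 was 0.99 lower (SE 0.18, adjusted p = 0.00129), with arrays at 10.52 to 11.11 against 11.79 to 11.98. The count of members called was 31 with arrays centred (24 higher and 7 lower), 16 with only these arrays in the fit and 14 with the RNA quality covariate. It fell to 20 without ribociclib replicate B and to 25 without abemaciclib replicate C, and was 30 without abemaciclib replicate A and 31 without ribociclib replicate C. Between the same groups, crypt and dividing cell markers were higher with abemaciclib in 9 of 10 cases and T and NK cell markers lower in 8 of 10, and their part in the difference was not tested.

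**Figure D4:**
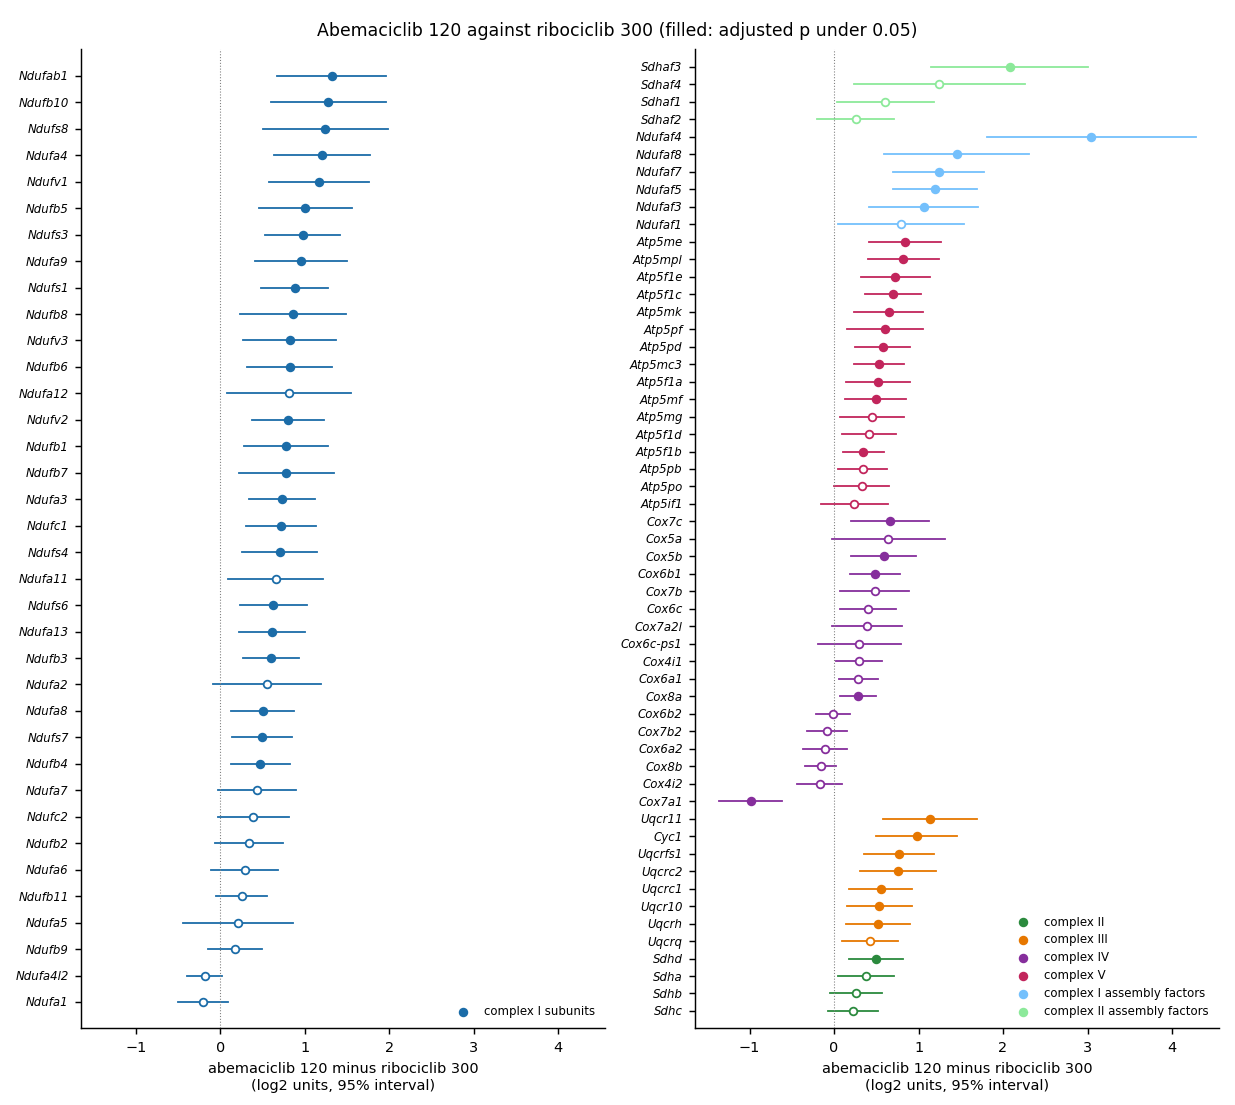
Difference between abemaciclib 120 and ribociclib 300 (horizontal axis, log2 units) for each member with its 95% interval, by complex, with filled points past the test. Past the test, 53 of the 91 members are higher with abemaciclib and 1, Cox7a1 at -0.99, is lower.

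Against palbociclib 100, which was given in another vehicle and at another dose, abemaciclib 120 was higher for Ndufaf4 (2.12), Ndufaf7 (0.92) and Ndufaf5 (0.79) and lower for Cox7a1 (-1.38), 4 of 91 members against 18.3% of all genes. Only 1 member was called without palbociclib replicate A, without abemaciclib replicate A or C, or with the RNA quality covariate. With arrays centred 11 were called, 9 of them lower. In the F test over all 6 groups, 19 of 91 members passed, against 22.6% of all genes. That count was 44 without abemaciclib 36 replicate B and 36 without ribociclib replicate A. Of all genes, 3831 and 4138 passed there, against 3212 in the main fit. The member count was 4 without ribociclib replicate B or C (3165 and 2593 of all genes) and 5 without abemaciclib 120 replicate A (1580). It was 11 without palbociclib 30 replicate B or palbociclib 100 replicate C (2472 and 2781 of all genes). Without vehicle replicate B or C or palbociclib 100 replicate B it was 12 (2533, 2459 and 2716 of all genes).

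Of the respiratory chain subunits encoded in mitochondrial DNA, 2 were measured. COX1 and COX2, the catalytic core of complex IV, differed by 0.02 (SE 0.07, adjusted p = 0.899) and -0.04 (SE 0.07, adjusted p = 0.783) with ribociclib 300, and by 0.01 and 0.11 with abemaciclib 120 (adjusted p = 0.961 and 0.338). Their median in single arrays stayed between -0.09 and 0.11 of the vehicle mean.

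Genes that act with the chain were taken from lists of known pathway members. Assembly factors outside the rule (38 measured) had a median of 0.28 with abemaciclib 120, and 5 rose and 1 fell. Bcs1l, which inserts the Rieske protein into complex III, rose by 1.33 (SE 0.33, adjusted p = 0.0104), and Higd1a, a hypoxia-induced factor of complex IV, fell by 1.12 (SE 0.22, adjusted p = 0.00217). Without abemaciclib replicate A the adjusted p of Bcs1l was 0.0607. Of 17 electron carrier and coenzyme Q genes, 4 rose, with a median of 0.57. Coq8a, a kinase-like protein of coenzyme Q synthesis, rose by 1.41 (SE 0.24, adjusted p = 0.000841). Of 30 genes of protein import and the outer membrane, 11 rose and none fell by the test, with a median of 0.46. Tomm40, the import pore of the outer membrane, rose by 1.70 (SE 0.41, adjusted p = 0.00857; 0.0522 without abemaciclib replicate A). With the RNA quality covariate 1 of the 30 import genes passed, 2 assembly factors rose and 1 of the coenzyme Q genes passed. Of all genes, 1596 passed in that fit, against 2560 in the main fit. Calls in the import list therefore dropped more steeply than calls over all genes.

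With ribociclib 300 the same lists lay below vehicle. The medians were -0.41 for the other assembly factors, where 0 rose and 2 fell, -0.29 for electron carriers and coenzyme Q (0 and 1) and -0.47 for import and the outer membrane (0 and 1). The citric acid cycle and pyruvate dehydrogenase genes had a median of -0.43, and 2 of 24 fell, among them Idh2, which makes NADPH in mitochondria (-1.27, SE 0.26, adjusted p = 0.0151). For fatty acid oxidation the median was -0.54 and 2 of 16 genes fell. Over all genes 3.73% passed with ribociclib 300 and 2.74% were lower, against 5.26% of the other assembly factors and 5.88% of the coenzyme Q list. Counts of 1 or 2 genes in lists of this size say little beside those shares. Glycolysis, which runs in the cytosol, had a median of -0.19 and 0 of 16 genes called, with 3 at an unadjusted p under 0.05, and its median was -0.02 with arrays centred. The medians of the other lists above are without centring, which moved the median of all genes by 0.175 with ribociclib 300. The centred value is therefore not to be set beside them. With abemaciclib 120, 1 citric acid cycle gene rose and 3 fell, 1 fatty acid oxidation gene rose and 3 fell, and 0 glycolysis genes rose and 3 fell. These are 16.7%, 25% and 18.8% of the lists, beside 18% of all genes. For the other assembly factors, coenzyme Q, import and biogenesis lists the main-fit shares called in either direction were 15.8%, 23.5%, 36.7% and 25%.

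Of 20 genes of mitochondrial biogenesis, Ppargc1a, the coactivator PGC-1α that promotes respiratory chain transcription, fell by 2.47 with ribociclib 300 (SE 0.28, adjusted p = 0.000547). It also fell by 1.96 with abemaciclib 120 (SE 0.28, adjusted p = 0.000274) and by 1.94 with abemaciclib 36 (SE 0.28, adjusted p = 0.0029). These 3 comparisons share the vehicle arrays. The related coactivator gene Pprc1 and Myc rose with abemaciclib 120 by 2.28 (SE 0.40, adjusted p = 0.00103) and 2.64 (SE 0.49, adjusted p = 0.00145). With ribociclib 300 they differed by -0.17 and -0.26 (adjusted p = 0.846 and 0.792). In this list 4 genes rose and 1 fell with abemaciclib 120, where 18% of all genes passed. With ribociclib 300, where 3.73% of all genes passed, 1 rose and 1 fell.

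**Figure D5:**
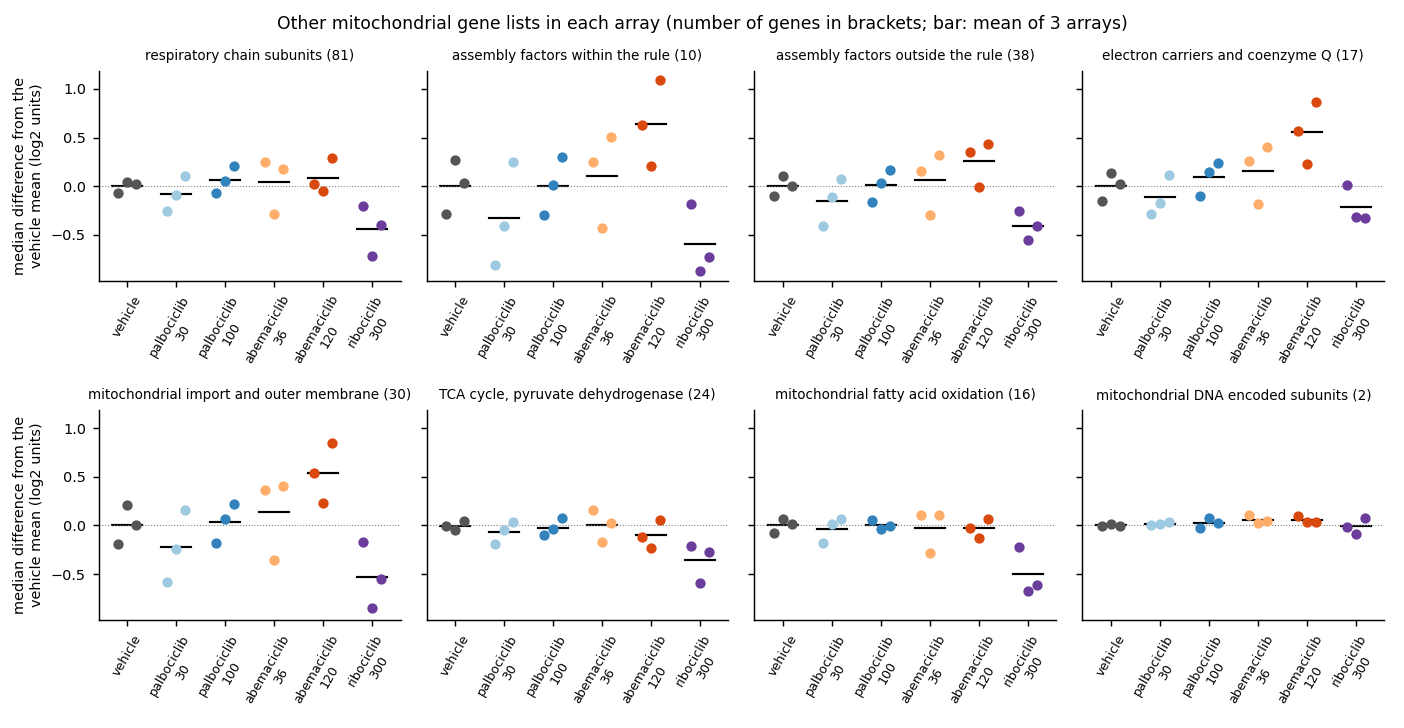
Median difference from the vehicle mean (vertical axis, log2 units) of the respiratory chain subunits, their assembly factors and other mitochondrial gene lists in each array (points), with the mean of 3 arrays as a bar. Assembly factor, coenzyme Q and import medians are above 0 in the abemaciclib 120 arrays except 1 at -0.01, while subunit medians there are -0.05 to 0.29, and the 2 mitochondrially encoded subunits lie between -0.09 and 0.11 throughout.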

How the data were processed

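Mucosal RNA of 18 arrays was analysed from the deposited value table, which holds log2 signals, 1 per probe set and array. The submitters' processing notes name RMA, Transcriptome Analysis Console and Expression Console and give no versions. RMA as usually run makes the signal distributions of arrays alike, so a change in total RNA per cell would not show. The arrays carry no read depth, and their number limits the precision. Of 31099 probe sets, 57 controls, 436 with several symbols and 9780 unnamed ones were left out, which left 20826 for 14217 genes.

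Arrays were grouped by treatment label. No source says that they came from separate animals, so each p-value reflects array-to-array spread, which may be technical. limma 3.58.1 in R 4.3.3 was fitted to all 18 arrays with 1 mean per group (eBayes with a trend on intensity, 12 residual degrees of freedom), and two-sided p-values were adjusted over all genes. With 3 arrays a group, exact permutation p-values stop at 0.1. Python 3.11.15 with pandas 2.3.3 and numpy 2.4.6 did the rest. The fit was tested on simulated data.

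The members and lists were chosen with earlier results of these data known. Named members were the complex II subunits, isoform sets, Uqcrfs1, Cyc1 and Atp5if1, up to 4 members per class with the smallest p with abemaciclib 120, and up to 3 with the smallest p in each other comparison. Others were named after their values were seen. Over all groups the replicate letters did not pair the arrays: of 45 same-letter pairs, 19 had deviations correlated above 0.1 (range -0.311 to 0.593). Only between abemaciclib 36 and abemaciclib 120 were all 3 pairs above 0.1 (0.126, 0.593 and 0.3), a pairing that comes from the data and not from the labels.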

Additional observations from a re-analysis of the deposited data

How the results depend on the processing

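The direction of the member median with ribociclib 300 (-0.57 to -0.30) and of abemaciclib 120 against ribociclib 300 (0.29 to 0.67) was the same in all 14 alternatives run for each. The median of palbociclib 100 against palbociclib 30 was 0.04 to 0.25. The other medians were within 0.1 of 0 and each changed sign in at least 1 alternative, such as -0.01 for abemaciclib 120 and 0.05 for palbociclib 30 with arrays centred. For ribociclib 300 against vehicle, 5 members were called. There were 3 with quantile normalization, 0 with centring, 0 with only the groups compared, 1 with the RNA quality covariate, 8 with the replicate block and 0 to 29 when 1 of its arrays was left out. Over all genes the main fit called 531, and these settings called 29 to 1317. Leaving out arrays of other groups, added after seeing the data, gave 0 to 14. For abemaciclib 120 against vehicle, 8 were called with only the groups compared (7 higher and 1 lower), in place of 4 (3 higher and 1 lower). Without abemaciclib 120 replicate C 5 were called, 2 higher and 3 lower. Against abemaciclib 36 the count of 2 became 1 with dim genes left out, with the mean of all probe sets, with only the groups compared, with the RNA quality covariate and, at the lowest, without 1 array (1 to 2). Against ribociclib 300 the count of 54 was 31 with centring, 16 with only the groups compared and 14 with the covariate, and 20 to 66 without 1 array. Of all genes, 3865 in the main fit became 6987, 1378 and 1408, and 2118 to 4781 without 1 array. Against palbociclib 100 the count of 4 was 11 with centring, 1 with the covariate and 1 to 5 without 1 array. Of all genes, 2598 became 4317, 970 and 1344 to 2643. In the F test 19 members became 30 with the replicate block, 4 with the covariate and 4 to 44 without 1 array. Of all genes, 3212 became 3435, 1246 and 1580 to 4138. With the block, counts in the other comparisons stayed within 1.5 times. Between the doses of abemaciclib, a fit of those arrays alone called only Cox7a1. A block by replicate letter in that fit, added after seeing the data, gave both calls. The adjusted p-values from limma were then 0.0201 for Cox7a1 and 0.0209 for Ndufaf7. The same values picked that pairing and no label gives it, so the block cannot serve as a check of the Ndufaf7 call. The causes of these changes were not tested. Signal above background was not determined, so differences of dim genes such as Ndufaf7 and the tissue-restricted complex IV isoforms are limited most.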

Other observations

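A further 7 probe sets that touch the rule carried more than 1 symbol. They pair Atp5mc1, Atp5mc2, Cox5a, Cox7a2, Ndufa10, Ndufs5 and Uqcrb each with a second gene or pseudogene, and were left out of all counts. Cox5a was counted through another probe set with 1 symbol. With ribociclib 300 all 7 lay below vehicle, with a median of -0.48 (range -0.69 to -0.28), and 4 did not overlap. With abemaciclib 120 their median was 0.08, with 1 of 7 below vehicle, and with palbociclib 30 all 7 lay below vehicle with a median of -0.15.

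Of the members, 10 had more than 1 probe set. With ribociclib 300 the second probe set of Sdhd differed by -0.45 (-0.44 for the one used), that of Uqcrc2 by -0.41 (-0.60) and that of Ndufv3 by -0.47 (-0.48). Those of Atp5me (0.09 against -0.38), Atp5po (0.10 against -0.53), Ndufa9 (-0.13 against -0.72), Sdhaf2 (0.65 against 0.15) and Ndufa7 (-0.59 against -0.30) lay further from the one used. For Ndufaf7 the values were -0.20 and -0.35, and the further probe sets of Atp5if1 gave 0.11 and -0.50 against -0.53.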
